A study of Mus musculus with 8 samples.

Results

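Mouse chromosome 12 was described here as 2341 windows of 50 kb, out of 51425 windows on 19 autosomes and chromosome X, in embryonic stem cells with and without dTAG treatment. Its members were all 23406 scored positions on the chromosome, spaced 5 kb apart from 3 to 120.025 Mb of mm10 with 0 gaps, averaged in windows that held at least 5 of 10 positions. The chromosome was selected on its measured dTAG minus control differences, the large ones being mostly toward later replication, and its 3 stretches were chosen by the same differences. The values below describe that choice and support nothing by a test.

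The compared groups were dTAG, mouse embryonic stem cells collected 2 days after treatment with dTAG, and control cells. dTAG molecules direct a protein that carries an engineered degron tag to the proteasome, and in this series the protein depleted was YY1, a zinc finger protein found at regulatory DNA, where it can join enhancers to promoters in loops. The labels refer culture and treatment to an earlier publication and say nothing further of the cell line, of the vehicle or of what the controls carry, and YY1 protein was not measured in these profiles. The 8 samples made 4 profiles, dTAG 1, dTAG 2, control 1 and control 2, each from an early and a late S phase fraction of BrdU-labelled cells. The labels do not say whether replicates were separate cultures, so any p-value measures only the spread between these profiles, which may be technical. For dTAG 1 the letters in the sample titles and the labelled fractions disagree on which sample is early. Its profile correlated positively with the other 3 (Pearson r of 0.970 to 0.991 over the windows of chromosome 12), so the deposited scores run in one direction.

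DNA is copied in a set order in S phase. Neighbouring origins fire at similar times, giving domains of early replication, usually gene-rich and open, and domains of late replication, usually gene-poor and compact. A local maximum of a timing profile marks a place where origins fire before their surroundings, and the slopes beside it are copied by forks that move outward. Here each position had a signed timing score, read as early when high. Read counts do not come with these scores, and their depth is unknown.

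The largest shifts on the chromosome lay around Lrfn5, around Cdhr3 and Atxn7l1, and between Fut8 and Gphn. Promoters of 4 genes there are shown because each lay in a region that replicated later after dTAG and because YY1 binds a known sequence, here searched as AANATGG, where N is any base, on both strands. Sequences are from RefSeq on GRCm38.p6, 250 bases before to 50 bases after the annotated start, read 5′ to 3′ along the gene, with capitals on each match to AANATGG. They are Lrfn5 at chr12:61522917-61523216, plus strand, Atxn7l1 at chr12:33146718-33147017, plus strand, Cdhr3 at chr12:33092826-33093125, minus strand, and Sypl at chr12:32953695-32953994, plus strand.
Lrfn5: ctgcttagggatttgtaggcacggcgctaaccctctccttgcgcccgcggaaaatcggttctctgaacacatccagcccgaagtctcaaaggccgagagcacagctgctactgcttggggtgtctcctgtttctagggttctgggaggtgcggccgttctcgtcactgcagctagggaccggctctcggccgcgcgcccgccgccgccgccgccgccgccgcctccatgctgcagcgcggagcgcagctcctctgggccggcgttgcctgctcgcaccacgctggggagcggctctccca
Atxn7l1: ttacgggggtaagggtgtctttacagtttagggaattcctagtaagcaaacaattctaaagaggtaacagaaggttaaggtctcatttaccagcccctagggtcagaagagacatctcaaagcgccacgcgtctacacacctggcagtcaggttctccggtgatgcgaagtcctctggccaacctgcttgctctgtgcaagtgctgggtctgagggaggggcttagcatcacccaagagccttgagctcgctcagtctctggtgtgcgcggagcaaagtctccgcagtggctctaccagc
Cdhr3: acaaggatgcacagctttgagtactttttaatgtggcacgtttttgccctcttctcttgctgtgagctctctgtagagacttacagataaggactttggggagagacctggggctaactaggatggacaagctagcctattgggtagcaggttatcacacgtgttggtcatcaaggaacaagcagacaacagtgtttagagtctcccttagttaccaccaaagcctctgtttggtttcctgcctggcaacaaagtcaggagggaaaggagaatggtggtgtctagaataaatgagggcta
Sypl: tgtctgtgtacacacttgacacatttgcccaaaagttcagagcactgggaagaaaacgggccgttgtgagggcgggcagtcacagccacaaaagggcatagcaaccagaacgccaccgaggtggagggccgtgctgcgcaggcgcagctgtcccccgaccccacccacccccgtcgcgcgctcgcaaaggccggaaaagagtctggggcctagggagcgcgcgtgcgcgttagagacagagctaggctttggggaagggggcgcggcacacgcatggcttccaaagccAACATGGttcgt
The match AACATGG stood near the end of the Sypl window, and these letters were not in the other 3. The promoters also differed in base composition, with 32 CG pairs in Lrfn5, 10 in Atxn7l1, 2 in Cdhr3 and 24 in Sypl. Of the 15 protein-coding genes whose annotated start lay in a later region of the chromosome and had a promoter in the table, 3 held AANATGG (20%), Sypl, Agr3 and Gm6657. The share was 15.1% of 588 promoters on chromosome 12 and 15.4% of 17492 in the genome. The longer AANATGGCG was in 0 of the 15, against 4.42% on chromosome 12 and 3.28% in the genome. A match is a description of the letters and not evidence of binding.

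Chromosome 12 had more windows later after dTAG than any other chromosome, as a share of its length, and few that were earlier. A window was called shifted when both dTAG profiles lay at least 0.5 score units on the same side of both control profiles. By that rule 77 windows of chromosome 12 were later (3.29%), where 1.09% of windows were called over the genome and 0.986% on the other 19 chromosomes. Only 6 windows were earlier (0.256%), where the share called over the genome was 0.531%, and the chromosome ranked 14 of 20 by that share. Later windows thus made up 92.8% of the shifted windows of chromosome 12, against 64.4% on the other chromosomes together. Among single chromosomes this share ran from 28.6% on chromosome 8 to 100% on chromosomes 16 and 17. It was 97.0% on chromosome 18 and 91.1% on chromosome 14, so a high share was not particular to chromosome 12. The chromosome held 13.7% of the later windows of the genome and 4.55% of all windows. Without 1 profile the rule makes fewer comparisons, and both counts were higher. Leaving out dTAG 1 gave 284 later and 89 earlier windows, and leaving out dTAG 2 gave 84 and 96. Leaving out control 1 gave 124 later and 170 earlier windows, and leaving out control 2 gave 232 and 31. Earlier windows thus outnumbered later ones without dTAG 2 or without control 1.

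**Figure D1:**
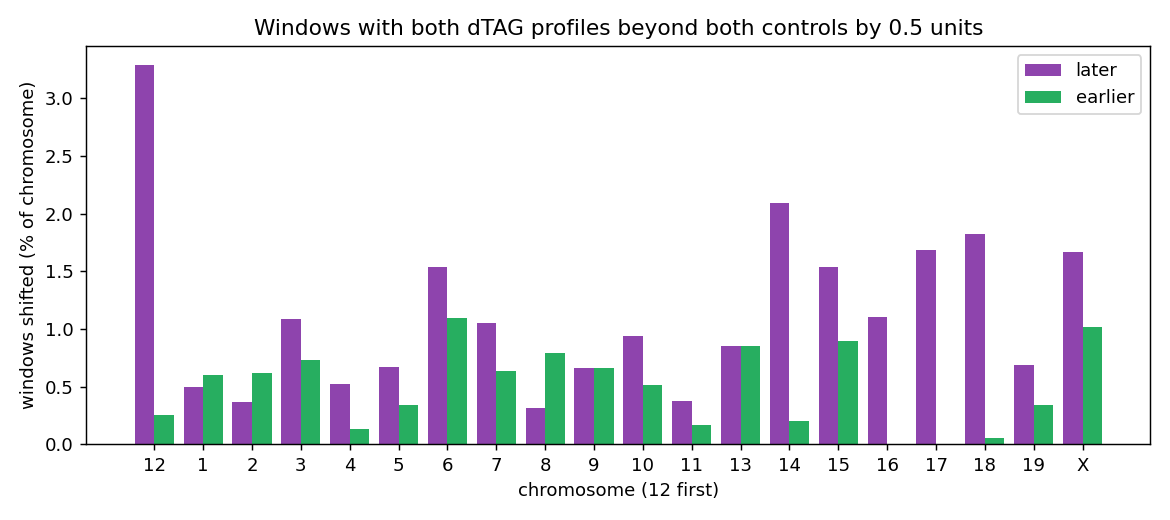
Percent of the 50 kb windows of each chromosome in which both dTAG profiles lay at least 0.5 score units below (later, purple) or above (earlier, green) both control profiles, with chromosome 12 at the left. Chromosome 12 stands highest for later windows at 3.29% and has 0.256% earlier windows.

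Shifts of any size were more balanced. Both dTAG profiles lay below both controls in 295 windows of chromosome 12 (12.6%), where the genome had 8.53%, and above both in 274 (11.7%), where the genome had 10.9%. The median dTAG minus control difference over the chromosome was 0.03 and the mean was -0.05, with -0.05 in each replicate number. Over the 2264 windows that were not called later the mean was -0.005. In 85.2% of windows the difference was smaller than 0.5 in size. At the threshold itself, the later windows just inside it had gaps between the groups of 0.520, 0.524 and 0.524, and those just outside 0.495, 0.492 and 0.492. For earlier windows the gaps were 0.514, 0.521 and 0.528 inside, and 0.491, 0.459 and 0.458 outside. limma, fitted over all windows with group as the only term, called 0 of the 2341 windows (adjusted p threshold 0.05), where 0% were called over the genome. Before adjustment 71 windows were under 0.05, among 500 of 51425 over the genome, where 2571 would be expected by chance. With the replicate number as a block it called 0, with a smallest adjusted p of 0.231 by limma. Before adjustment 326 windows were under 0.05 in that model, among 6224 of 51425 over the genome. A blocked model with trended and robust variance called 103, of which 97 were later and 6 earlier, among 1462 of 51425 over the genome. Chromosome 12 holds 4.55% of all windows.

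By the mean score over all 4 profiles, later windows lay mainly in DNA of intermediate timing. Windows with a mean score over all 4 profiles between -1 and 1 were later in 46 of 332 cases (13.9%), against 2.24% of such windows on the other chromosomes. From -3 to -1 the share was 5.18%, against 2.19% elsewhere, and below -3 it was 1.71%, against 0.380%. Among the 518 windows from 1 to 3 and the 460 above 3, 0 were later, against 0.791% and 0.060% elsewhere. The mean over all 4 profiles includes dTAG, so a window lower after dTAG falls in a lower class than by control alone. Windows early in control were also later, as at 36.075 and 77.525 Mb, where the control mean was 1.56 and 1.71. The later windows had a median score of -0.70, and the median slope of the profile through them was 6.20 score units per Mb, against 3.85 in windows that were not shifted. They held 3.64 protein-coding genes per Mb, against 5.88, while the share of windows touching a gene was 49.4%, against 49.5%.

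The 77 windows joined into 10 regions that spanned 3850 kb, with a median of 275 kb and a largest of 850 kb. Elsewhere in the genome 115 later regions had a median of 200 kb and a largest of 700 kb, and 5 of those reached 500 kb, against 4 on chromosome 12. Among the 10, the widest was chr12:77400001-78250000, from the end of Fut8, the enzyme of core fucosylation, to the start of Gphn, which encodes the synaptic scaffold gephyrin. Its mean scores were -1.02 and -1.40 in dTAG 1 and 2, against 0.22 and 0.70 in control 1 and 2. The region of 700 kb at Lrfn5, chr12:61250001-61950000, had -3.12 and -2.86 in the dTAG profiles, against -1.58 and -1.09 in the controls. That the 2 groups stand apart in both regions follows from the rule that chose the windows.

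Genes in the region of 650 kb at chr12:35800001-36450000 included Agr2 and Agr3, protein disulphide isomerase relatives of secretory cells, Tspan13, a tetraspanin, Bzw2, a regulator of translation initiation, Ankmy2, Lrrc72, and Sostdc1, a secreted antagonist of BMP and Wnt signals. Mean scores there were -0.88 and -1.28 in dTAG 1 and 2, against 0.18 and 0.05 in control 1 and 2. The dTAG means were below 0 and the control means above it.

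The region of 550 kb at chr12:44150001-44700000 held Nrcam, a neuronal adhesion molecule, Pnpla8, a phospholipase, and Dnajb9, a chaperone of the endoplasmic reticulum. It had mean scores of -0.39 and -0.91 in dTAG 1 and 2, against 0.66 and 0.42 in control 1 and 2, again on either side of 0. The region of 350 kb at the end of Rnf144a, a ubiquitin ligase gene at 26.307 to 26.415 Mb, was late in all profiles, with -3.72 and -4.05 in the dTAG profiles, against -3.05 and -2.40 in the controls.

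The other later regions were narrower. Those at 32.950 to 33.150 and 33.450 to 33.650 Mb flanked Atxn7l1, those ending at 12.150 and 27.550 Mb held 0 genes, and that at 38.100 Mb was 1 window inside Dgkb, a diacylglycerol kinase gene. Over all 10 regions the mean difference ran from -1.97 to -0.89. The 4 earlier regions, near 42.950, 43.350, 45.400 and 95.400 Mb, spanned 50 to 100 kb, held 0 protein-coding genes and had differences of 0.72 to 0.83.

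**Figure D2:**
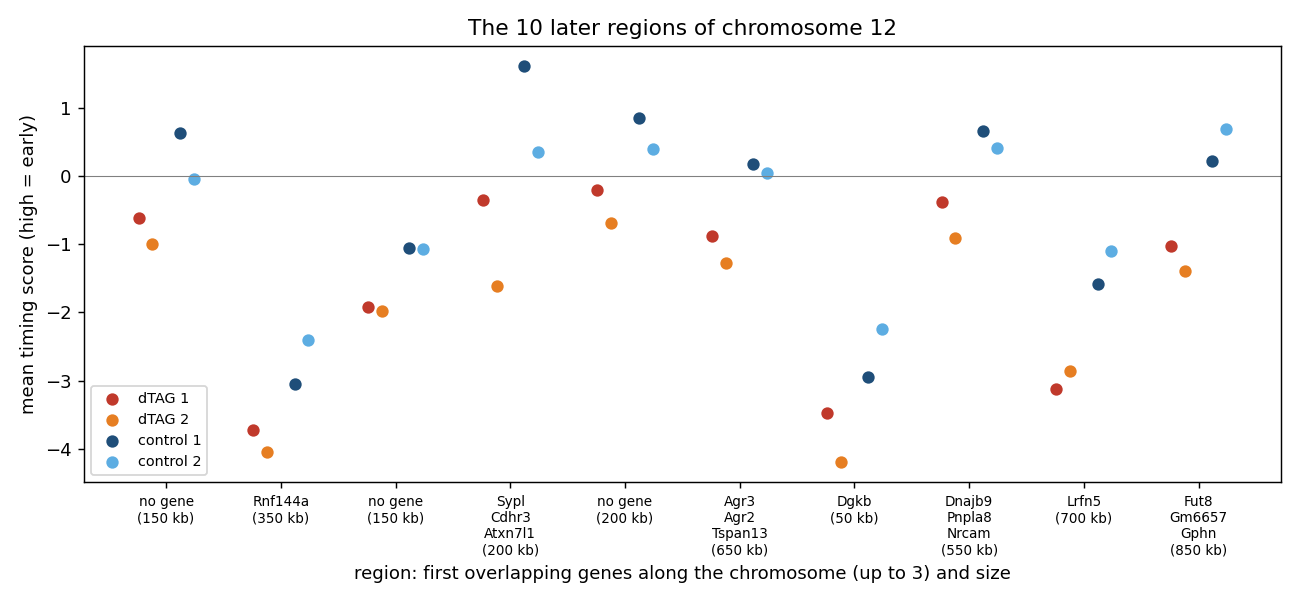
Mean timing score of each profile in the 10 later regions of chromosome 12, in order along the chromosome, with dTAG profiles (red, orange) left of control profiles (dark and light blue) in each region. Both dTAG points lie below both control points in each region, as the rule that chose the windows requires. The regions differ in level, from about -4 at Rnf144a and Dgkb to values on either side of 0.

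The chromosome was cut into 235 bins of 500 kb, and the bins with both dTAG profiles below both controls were ranked by their difference. The 3 bins with the lowest differences among those ranked were at 77.500, 61.500 and 33.000 Mb. The next, from 36.000 Mb, had a difference of -1.16, against -1.58 for the bin ranked before it.

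At Lrfn5, a synaptic adhesion molecule gene of 335 kb, a peak that stood out from a late domain, with a height near 0, was lower after dTAG. Lrfn5 was the only protein-coding gene between Gm32936, ending at 60.318 Mb, and Fscb, starting at 64.471 Mb, an interval of 4153 kb. Over the bin chr12:61500001-62000000 the mean score was -3.08 and -2.74 in dTAG 1 and 2, against -1.42 and -0.97 in control 1 and 2. The difference was -1.72, with -1.66 and -1.77 in the 2 replicate numbers. The dTAG values were below both controls in a continuous run from 61.200 to 62.000 Mb, 800 kb, and 9 of the 10 windows of the bin were later. The peak stood in the window centred at 61.625 Mb in all 4 profiles, with -2.13 and -1.61 in dTAG 1 and 2, against -0.06 and 0.39 in control 1 and 2. Its position was therefore kept while its height differed by -2.03. Over the whole gene body, from 61.523 to 61.858 Mb, the difference was -2.01.

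Around Cdhr3 and Atxn7l1 a broader peak was lower after dTAG, and here the replicate numbers were further apart. The bin chr12:33000001-33500000 averaged 0.45 and -0.61 in dTAG 1 and 2, against 2.04 and 0.97 in control 1 and 2. The bin was chosen among those in which the groups do not overlap, and the gap between dTAG 1 and control 2 was 0.520. Within each replicate number the difference was -1.58. Without control 1, or without dTAG 2, it was -1.05, and without control 2 or dTAG 1 it was -2.11. The dTAG profiles were below both controls over 1000 kb, from 32.750 to 33.750 Mb. The largest difference, -2.11, was in the window at 33.050 Mb, over Cdhr3.

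Genes of this stretch differed in how far they passed. Cdhr3, a cadherin-related gene known in human as the receptor of rhinovirus C, had -0.36 and -1.70 in dTAG 1 and 2, against 1.74 and 0.43 in control 1 and 2, and was called later. Sypl, a synaptophysin relative at 32.954 to 32.980 Mb, was called later with a difference of -1.66. Atxn7l1, a relative of the ataxin-7 gene, had 0.69 and -0.43 in the dTAG profiles, against 2.16 and 1.09 in the controls. Its difference was -1.50, but the gap between the groups was 0.398, so its body average did not reach the 0.5 rule, and only 4 of the 10 windows of the bin did. Efcab10 and Twistnb, a subunit of RNA polymerase I, followed with gaps of 0.438 and 0.441 and differences of -1.28 and -1.16. Nampt, the NAD salvage enzyme gene on the other side at 32.820 Mb, had a gap of 0.254 and a difference of -1.11.

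Between Fut8 and Gphn the dTAG profiles lay lowest relative to control. The bin chr12:77500001-78000000 overlapped 0 protein-coding genes and was part of an interval of 721 kb from the end of Fut8 at 77.476 Mb to Gm6657 at 78.197 Mb. It averaged -1.27 and -1.74 in dTAG 1 and 2, against 0.13 and 0.79 in control 1 and 2. The difference was -1.97, from -1.40 for dTAG 1 minus control 1 and -2.53 for dTAG 2 minus control 2, and all 10 windows were later. The lowest window, at 77.700 Mb, had a difference of -2.46. Both dTAG profiles were below both controls for 1250 kb, from 77.100 to 78.350 Mb. The peak of the control mean centred at 77.525 Mb, with 1.47 and 1.95 in control 1 and 2, had a prominence of 0.606. The same window gave 0.18 and -0.09 in dTAG 1 and 2. No peak of the dTAG mean with a prominence of at least 0.5 lay within 100 kb, the nearest being 650 kb away. Both dTAG profiles kept a small local maximum at -250 kb from the lowest window, with 0.233 in dTAG 1 and -0.035 in dTAG 2. Of the genes at its edges, Gm6657 was later, with -0.76 in both dTAG profiles, against 0.13 and 0.30 in the controls. Fut8 and Gphn, whose bodies reach out of the region, had differences of -0.77 and -0.44.

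**Figure D3:**
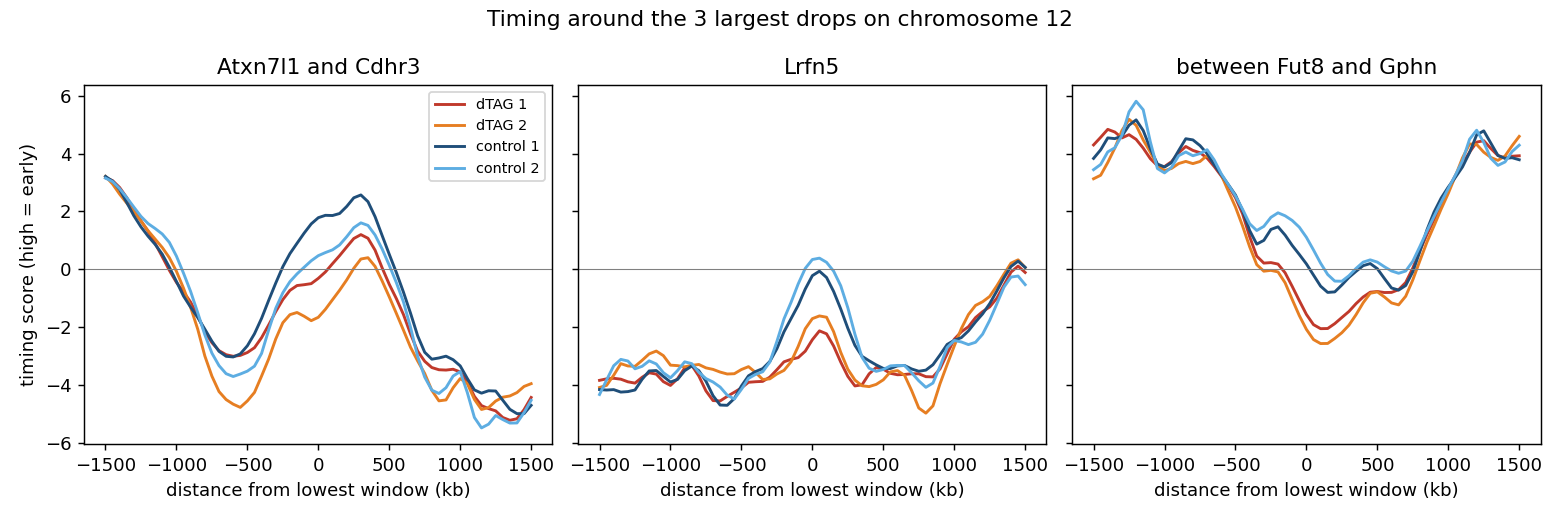
Timing score of the 4 profiles within 1500 kb of the window with the lowest difference in each of the 3 stretches, at 50 kb steps. At Lrfn5 the peak stays in place and is lower in both dTAG profiles, and around Cdhr3 and Atxn7l1 dTAG 1 comes near control 2. Between Fut8 and Gphn both dTAG profiles lie below both controls across most of the dip between 2 early domains, but not at its right edge.

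Timing domains of the chromosome were otherwise much alike with and without dTAG. A domain was a run of windows above 0 (early) or not above 0 (late), with runs under 200 kb joined to their neighbours. The mean of the dTAG profiles and the mean of the control profiles each gave 59 domains, and single profiles gave 57 for each dTAG profile and 61 for each control. In the control mean, 30 early domains covered 58.5 Mb with 9.85 protein-coding genes per Mb, and 29 late domains covered 58.55 Mb with 1.74. The largest early domain ran from 16.350 to 25.200 Mb, and the largest late domain from 92.000 to 98.450 Mb. In the dTAG mean the largest late domain was 7400 kb, against 6450 kb in the control mean. The domain from 92.000 Mb kept 128 of its 129 windows late in the dTAG mean. The early domains beside it kept 15 of 15 and 91 of 95 windows early, so the domain of 7400 kb was at another place.

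In 4 early domains most windows were no longer above 0 in the dTAG mean. The early domain at 44.200 to 44.700 Mb, with Nrcam, had 0 of 10 windows early in the dTAG mean, and all 10 were later. That at 57.150 to 57.550 Mb, which ends at Foxa1, a pioneer factor of endoderm, also had 0 of 8, with 0 windows past the rule. It averaged -0.14 and -0.44 in dTAG 1 and 2, against 0.39 and -0.09 in control 1 and 2, so it was early in control 1 alone. At 32.850 to 33.600 Mb 5 of 15 windows were early in the dTAG mean, and at 35.850 to 36.250 Mb 2 of 8. Windows on the other side of 0 were also found elsewhere, as in the early domain from 75.250 Mb, where 46 of 51 windows were early in the dTAG mean, and in the late domain from 117.900 Mb, where 32 of 38 were late. Other short early domains, from 38.650, 43.000 and 119.800 Mb, kept all of their 4, 8 and 5 windows. Later windows lay in 5 of the 30 early domains and 7 of the 29 late ones.

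Domain edges that could be matched moved little. Of the 54 edges matched between dTAG 1 and control 1, 85.2% lay within 50 kb of each other, and of the 54 between dTAG 2 and control 2, 87.0%. In each of these comparisons 6 of 60 edges had no match and are not in the share. The share between the replicate numbers was 75.0% within dTAG and 75.0% within control. Fewer edges lay that close between replicate numbers than between treatments. The deposited scores also have mirrored distributions in the 2 numbers, with genome means of 0.199 in replicate 1 and -0.199 in replicate 2, and the part of this offset in the edges was not tested.

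Local peaks give the same chromosome as a set of places that fire ahead of their neighbours. The control mean had 104 peaks with a prominence of at least 0.5, and the dTAG mean 101. Single profiles had 94 and 118 in dTAG 1 and 2, and 98 and 116 in control 1 and 2. The number thus differed more between replicate numbers than between treatments. Of the 104 peaks of the control mean, 84 had a peak of the dTAG mean within 100 kb and 20 did not. Matching of peaks between replicate numbers was not computed. Both dTAG profiles were below both controls at 26 peaks and above both at 12. Over all windows of the chromosome these shares were 12.6% and 11.7%. The peaks were picked as maxima of the control mean, and that choice by itself favours lower dTAG values in the same windows. The median difference at peaks was -0.09, with -0.08 and -0.10 in the replicate numbers. Later by 0.5 or more were 6 peaks, at 26.025, 36.075, 44.525, 61.625, 77.525 and 78.175 Mb, and earlier were 0. The peak at 36.075 Mb, inside the group of Agr2, Tspan13 and Bzw2, had 0.40 and 0.00 in dTAG 1 and 2, against 1.78 and 1.33 in control 1 and 2, and stayed in place. The peak at 44.525 Mb in Nrcam had -0.04 and -1.07 in the dTAG profiles, against 1.14 and 0.67 in the controls. Only 5 of the 10 later regions held a control peak.

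**Figure D4:**
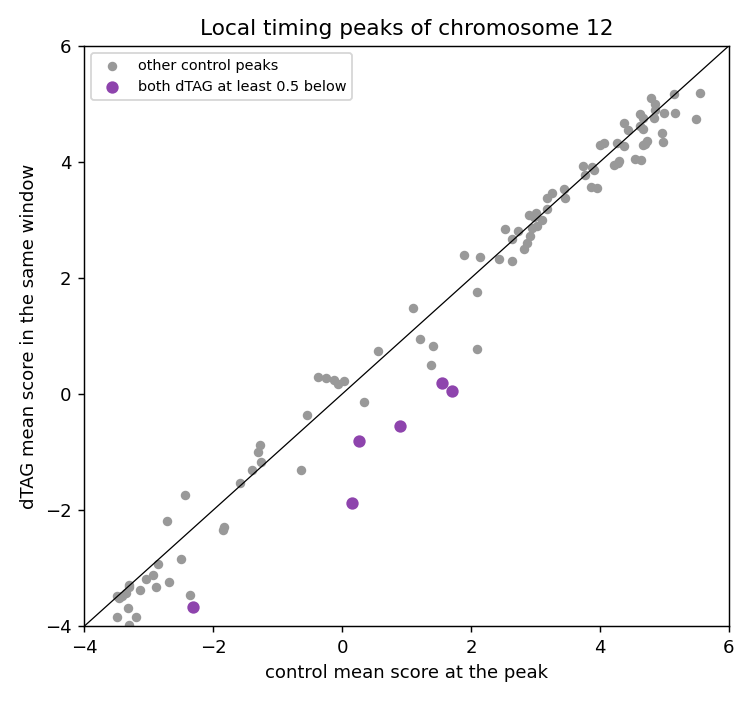
Mean timing score of the 2 dTAG profiles (vertical) against that of the 2 control profiles (horizontal) at the 104 local peaks of the control mean on chromosome 12, with the line of equality. The 6 peaks later by 0.5 or more lie below the line at control heights between -2.31 and 1.71. The peak at 33.375 Mb, at 0.78 in dTAG and 2.09 in control, also lies well below the line without reaching the rule.

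Of 678 protein-coding genes with a score averaged over the gene body, 14 were later (2.06%), where 0.762% were called over the genome, and 0 were earlier, where 0.316% were called. The 14 were Sypl, Cdhr3, Agr3, Agr2, Tspan13, Bzw2, Ankmy2, Lrrc72, Sostdc1, Dnajb9, Pnpla8, Nrcam, Lrfn5 and Gm6657. They lay in 5 regions, and neighbours share timing, so they are not 14 separate events. The median difference over all 678 genes was -0.01, and over the genome -0.02.

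The listed pluripotency genes and developmental transcription factors were not among the 14. Of 8 pluripotency and stem cell genes, 0 were later or earlier, and both dTAG profiles lay below both controls at 3, with a median difference of -0.28. Over all 678 genes, both dTAG profiles lay below both controls at 90 and above both at 70. Esrrb, a nuclear receptor of the naive state, had 3.93 and 3.67 in dTAG 1 and 2, against 4.26 and 3.94 in control 1 and 2, groups that stood apart by 0.008. Id2, an inhibitor of helix-loop-helix factors, had the lowest difference of the list at -0.64, and Mycn, a Myc family gene, the highest at 0.33. Yy1 itself lies on this chromosome at 108.793 to 108.820 Mb and replicated early, with 4.49 and 4.08 in the dTAG profiles, against 4.56 and 4.82 in the controls. Of 22 developmental transcription factor genes, 0 were shifted, with a median of -0.13, from -0.69 at Sox11, a neural progenitor factor, to 0.66 at Ahr, the aryl hydrocarbon receptor.

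In the other lists Lrfn5 was the only shifted gene. In the imprinted Dlk1 to Dio3 cluster 0 of 7 genes were shifted, with a median of 0.04, from -0.22 at Dlk1 to 0.30 at Mirg. The serpin A cluster of protease inhibitor genes had 0 of 20 shifted, from -0.41 at Serpina9 to 0.19 at Serpina6, and a median of -0.17. Of 23 growth and housekeeping genes 0 were shifted, with a median of -0.08, from -1.16 at Twistnb to 0.20 at Psma6, a proteasome subunit. Of 20 long neuronal and adhesion genes, 1 was later, Lrfn5, and the median was -0.17. Nrcam, a gene of 276 kb that was later, is not in that list. The highest of that list was Kcnh5, a potassium channel, at 0.35, and Nrxn3, the neurexin gene of 1612 kb, was late in all profiles, with -4.35 and -4.22 after dTAG, against -4.49 and -4.30 in control.

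The 2 replicate numbers each gave a dTAG minus control difference that shares no profile with the other. Over the 2341 windows they correlated at r = 0.530, the highest of the 20 chromosomes, against 0.352 over the other chromosomes together. Without the 77 later windows r was 0.341. Windows share reads through smoothing and lie in domains, so they are not independent, and no p is given. The signs were the same in 64.2% of windows, against 60.5% elsewhere. Both differences were at least 0.5 below 0 in 134 windows, where 3.26% of windows were called over the genome, and at least 0.5 above 0 in 35, where 2.22% were called. Of the 378 windows with a difference of at least 0.5 in replicate 1, 169 had one of that size the same way in replicate 2 and 101 had the opposite sign.

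In the scores as deposited, the replicate numbers differed from each other more than dTAG from control. The median size of a window's difference was 0.19 for dTAG 1 minus control 1 and 0.29 for dTAG 2 minus control 2. It was 0.47 for dTAG 2 minus dTAG 1 and 0.48 for control 2 minus control 1. Pearson r over the windows was 0.991 for dTAG 1 with control 1 and 0.984 for dTAG 2 with control 2, against 0.974 within dTAG and 0.974 within control. The mean of dTAG 2 minus dTAG 1 was -0.31 and that of control 2 minus control 1 -0.32. Over the genome both means were -0.399. The median sizes between replicate numbers include this offset, and the deposited distributions match within each number but not between them. The median sizes are therefore not like measures of spread. Of the 134 windows below in both replicate numbers, 57 missed the later rule, which also sets each dTAG profile against the control of the other number.

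**Figure D5:**
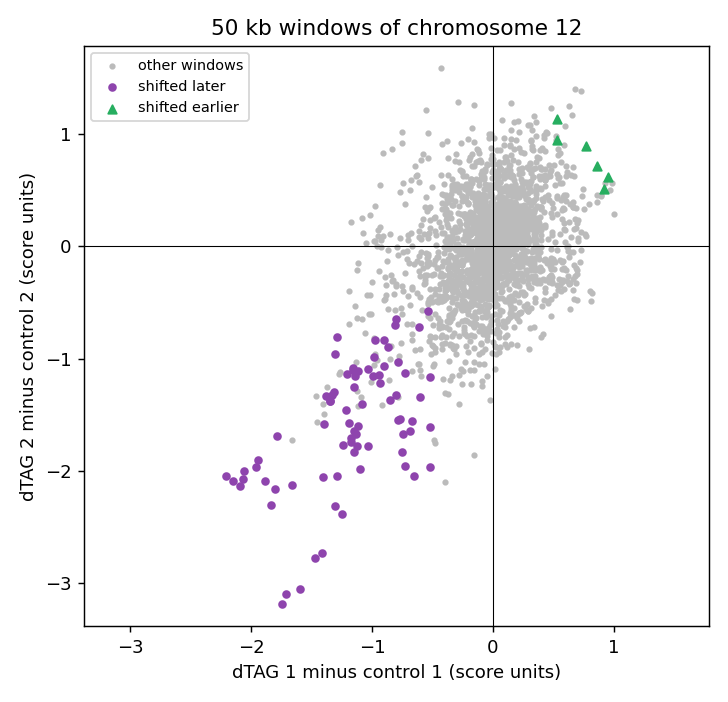
Difference dTAG minus control in replicate 2 (vertical) against that in replicate 1 (horizontal), in score units, for the 2341 windows of 50 kb on chromosome 12, with later windows in purple, earlier ones in green and the rest in grey. The later windows reach -2.21 in replicate 1 and -3.18 in replicate 2 and form the lower left arm, while the grey windows spread around 0.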

How the data were processed

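Early and late S phase fractions of BrdU-labelled mouse embryonic stem cells were sequenced, per the labels' protocols, after propidium iodide sorting and immunoprecipitation. The submitters' processing notes name the tools Bowtie2, SAMtools and bedtools and the build mm10, with tool versions not given in the sources used here. What the authors deposited is a signed timing score per 5 kb position, made with Loess smoothing and quantile normalization, per the file headers and name. The formula, log base and direction are not stated, and high was read as early. Smoothing makes neighbouring windows share reads, and the quantile step sets each profile's spread. The sorted scores of dTAG 1 and control 1 differed by at most 5.16e-05, and those of dTAG 2 and control 2 by at most 0.000114. dTAG 1 and the sign-turned dTAG 2 differed by at most 0.000117. Of 526745 positions, 514245 had a score in all 4 profiles and 4 with a score in only some were left out.

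Samples were grouped by their descriptions, and replicates without a number in the labels were called replicate 1. The numbers are not said to mark a shared day or culture. Scores were averaged in 50 kb windows with 5 or more of 10 positions. Windows were tested 2-sided by limma 3.58.1 under R 4.3.3, using lmFit, then eBayes, with treatment alone in the model and p-values adjusted by Benjamini-Hochberg at 0.05. The script was tested on simulated data first. Windows were also described by the 0.5 unit rule. Shifted windows up to 100 kb apart were joined into regions. Peaks were found with scipy 1.17.1 in Python 3.11.15, and plots drawn with matplotlib 3.10.9. Genes came from RefSeq on GRCm38.p6, the assembly behind mm10, and a gene's score was its mean over the gene body. For 679 protein-coding genes on chromosome 12, 678 had a score. A listed symbol that was not on the chromosome or had no score was dropped. That removed 1 symbol each from the long neuronal list (Sorcs) and the housekeeping list (Polr1f). A gene's promoter was the RefSeq window nearest its outer end. Of 22 genes looked up there, 21 matched.

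The chromosome, the stretches, the lists and the rules were chosen with earlier results of these data known. Named genes were those in or beside the 3 stretches, up to 3 of the longest in each shifted region, apart from 1 gene that is not reported here, Yy1, and the members with the lowest and highest difference in each list. Nampt, Efcab10, Esrrb, Nrxn3, Foxa1 and the further genes of the regions were named after their values were seen. Alternatives covered the window size, partly filled windows, quantile normalization over all profiles, centring, the shift threshold, the limma model, the domain rules and leaving out each profile.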

Additional observations from a re-analysis of the deposited data

How the results depend on the processing

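The differences at the 3 stretches were below 0 under all 10 alternatives tried for each. The limma model with a replicate block called 0 windows of chromosome 12, as did the model without it. The replicate block with trended and robust variance called 103, among 1462 of 51425 over the genome. Leaving out 1 profile leaves a group with a single profile, so limma calls from those fits are not given. The 77 later windows became 39 with windows of 100 kb, which are fewer by construction, 138 at a shift of at least 0.25 units and 27 at 1 unit. They became 97 with profiles brought to a shared distribution and 86 with centred profiles. Without 1 profile they ranged from 84 to 284. The 6 earlier windows became 3 with windows of 100 kb, 9 with a shared distribution and 10 with centred profiles. They became 39 at 0.25 units and 0 at 1 unit, and ranged from 31 to 170 without 1 profile. With 1 profile missing the rule makes fewer comparisons by construction, and without dTAG 2 or without control 1 earlier windows outnumbered later ones, 96 against 84 and 170 against 124. The replicate numbers are then also unequal between the groups, and replicate 2 lay lower. The part of this in the counts was not tested. The difference was -2.13 at 61.500 Mb and -2.46 at 77.500 Mb when only the lowest 50 kb window was taken. Without 1 profile it ranged from -2.11 to -1.05 at 33.000 Mb, from -1.94 to -1.49 at 61.500 Mb and from -2.30 to -1.63 at 77.500 Mb. Domains numbered 57 to 69 and the correlation of the replicate numbers was 0.528 to 0.543 over their alternatives. With 2 profiles a group and no read counts, depth gives no limit that can be stated, and the replicate offset is as large as many differences.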
